A study of Mus musculus with 2 samples.

Results

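Of 92924 p53 peaks in the list, 492 had their midpoint between positions 79000000 and 81000000 of mouse chromosome 10 (build mm9). They are described here against the 5 Mb on either side (687 peaks) and the remainder of the chromosome (3499 of its 4678 peaks). The stretch was selected on its peak count, as the densest pair of neighbouring 1 Mb bins, so its density and the closeness of its peaks are given as a description with no test. Scores and widths played no part in that choice.

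The series holds a p53 ChIP library, pulled down with the antibody P53(M-19), and an input library made without antibody. Both came from mouse embryonic stem cells of a C57BL/6X129Sv mixed background, kept for fewer than 20 passages with leukemia inhibitory factor and exposed to Nutlin for 8 hours. The dose is written as 20 in both places that give it, as µM in one and as mM in the other. Every peak compares the ChIP library with the input library, with 1 library each, so no value here has an error between cultures, none measures a response to Nutlin, and read depth is unknown.

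p53 is a tumour suppressor and a transcription factor that binds a specific DNA sequence and acts on nearby genes in cell cycle arrest, apoptosis, DNA repair and metabolism. Its level is kept low by the ubiquitin ligase Mdm2, and Nutlin blocks the contact between them. As general background, which no file at hand can place on mm9, this part of chromosome 10 is gene-rich and carries Gpx4 (a peroxidase that removes lipid peroxides), Stk11 (the kinase LKB1), Tcf3 (a helix-loop-helix transcription factor, E2A), Dot1l (a histone H3 methyltransferase) and Gadd45b (a stress-response gene). In RefSeq's GRCm38 annotation of chromosome 10, Stk11, Tcf3, Dot1l and Gadd45b follow Gpx4 at a rank of 2, 23, 37 and 49 protein-coding genes. No peak was assigned to a gene, and no sequence under a peak is shown, because neither sequence nor annotation of mm9 was used.

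Linked over gaps of up to 25 kb, the 492 peaks belonged to a single block, which began abruptly at the left limit and ran on a little past the right one. The first Mb held 237 peaks and the second held 255. The adjoining Mb on the left held 17 peaks and the one on the right held 33, and the other Mb of the flanks held between 48 and 121. Density was 246 per Mb in the 2 Mb, against 68.7 per Mb over both flanks and 30.4 per Mb over the remainder of the chromosome. The ratio to the flanks was 3.58 (exact conditional 95% interval 3.18 to 4.03) and the ratio to the remainder was 8.08 (7.34 to 8.89). These intervals, like all others here, cover counting error of peaks only and treat neighbouring peaks as independent. They make no allowance for the choice of the stretch by its count, so intervals of density ratios only describe it. The left flank, at 81.2 per Mb, was denser than the right flank, at 56.2 per Mb.

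**Figure D1:**
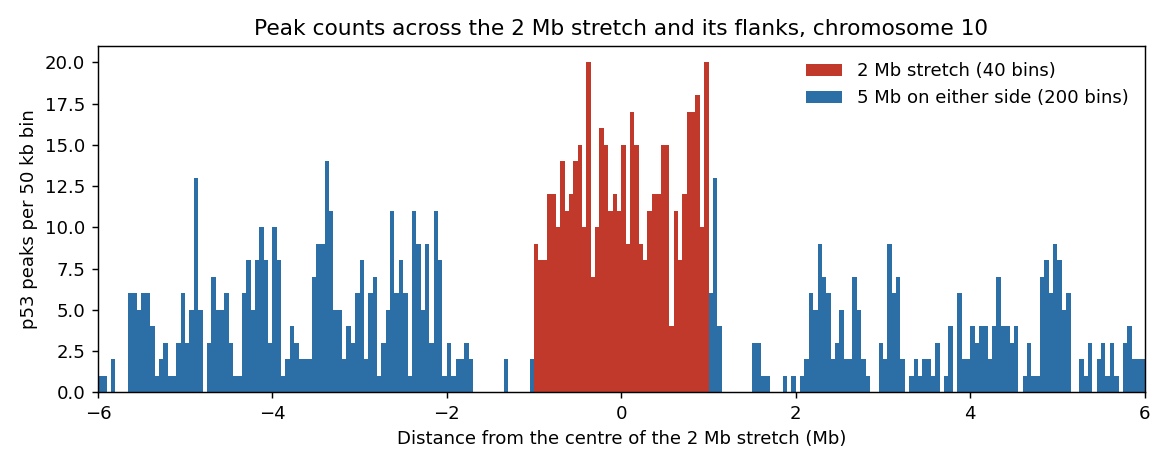
Number of p53 peaks per 50 kb bin (vertical axis) by distance in Mb from the centre of the 2 Mb stretch (horizontal axis), with the 40 bins of the stretch in red and the 200 bins of its flanks in blue. The red bins held 4 to 20 peaks each and the blue bins 0 to 14. Ground beside the stretch was nearly empty on the left, while on the right the counts of the first 100 kb (19 peaks) lay in the range of the stretch and nearly empty ground came after.

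The left limit fell close to an end of the block, and the right limit cut through it. On the left, the first peak inside lay from 79002395 to 79002825 (score 64.01, 431 bases wide), and the last peak outside lay from 78996757 to 78997290 (score 90.21, 534 bases). On the right, the last peak inside lay from 80999750 to 81000235 (score 114.28, 486 bases), and the first peak outside lay from 81003589 to 81004143 (score 114.43, 555 bases). The first 250 kb inside the left limit held 49 peaks, against 2 in the 250 kb outside it. The last 250 kb inside the right limit held 82 peaks, against 23 in the 250 kb outside it. Of these 23, 19 lay in the first 100 kb past the limit, against 17 to 35 in each 100 kb of the 2 Mb.

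Followed outward until a gap of over 25 kb, the block ran from 78988119 to 81016444 and held 499 peaks, 2 of them left and 5 right of the limits. A gap of 302654 bases without a peak lay before it, from 78685465 to 78988118, and a gap of 33187 bases followed it. With gaps of up to 50 kb allowed, the block reached 81118493, held 517 peaks and was followed by 391797 bases without a peak. By number of peaks, the 499-peak run was the longest of its kind in the list, a place that goes with the density that chose the stretch. The next held 338 peaks on chromosome 11 (118558957 to 120177576) and the third held 205 peaks on chromosome 2 (172196059 to 173322128). On chromosome 10 the second longest run held 64 peaks. The limit of 25 kb was set after seeing the data and lies just above the longest gap inside the 2 Mb, of 22195 bases. Of the 491 gaps there, 486 were 20 kb or shorter, so a limit of 20 kb would split the block.

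Within the 2 Mb, counts in 20 kb bins varied about as much as independent scatter around a common mean would give, as set out below. Of 100 bins of 20 kb, 99 held at least 1 peak, against 311 of 500 flank bins, and 40.0% of all 20 kb bins on the autosomes were occupied. Such occupancy goes with the density that chose the stretch and is no measure of evenness. The only empty bin ran from 79560001 to 79580000 (named after its count was seen). Bins held 0 to 11 peaks with a median of 5, and 73 of the 100 held 3 to 6. In the flanks the range was 0 to 9 with a median of 1. In bins of 50 kb the 2 Mb held 12.3 ± 3.63 peaks (mean ± SD over 40 bins, range 4 to 20), against 3.44 ± 3.14 (200 bins, range 0 to 14) in the flanks. The SD here is between bins of the same list, not between replicates. The 4 successive pieces of 500 kb held 110, 127, 123 and 132 peaks, and the 20 pieces of 100 kb held 17 to 35.

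The variance of the 20 kb counts divided by their mean was 0.972 in the 2 Mb. Counts that scatter independently around 1 common mean give a ratio near 1, so this value does not mean that peaks were regularly spaced. For peaks under 100 alone the ratio was 1.21, and for those from 100 to under 1000 it was 0.812. That order was not kept in bins of 50 kb, where the ratios were 0.861 and 0.895. Over all peaks at 20 kb the ratio was 1.96 in the left flank, 1.60 in the right flank and 1.74 over the remainder of the chromosome. At 50 kb it was 1.07 in the 2 Mb, against 2.95, 2.53 and 2.68 in these stretches. Of 79 autosomal 2 Mb windows with 200 or more peaks, 3 had a lower ratio at 20 kb than this one and 75 a higher one (range 0.864 to 2.60, median 1.403). A window moved by 250 kb takes in the sparser ground outside the block, which by itself raises the ratio. With such moves the ratio was 1.39 to the left and 1.29 to the right.

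**Figure D2:**
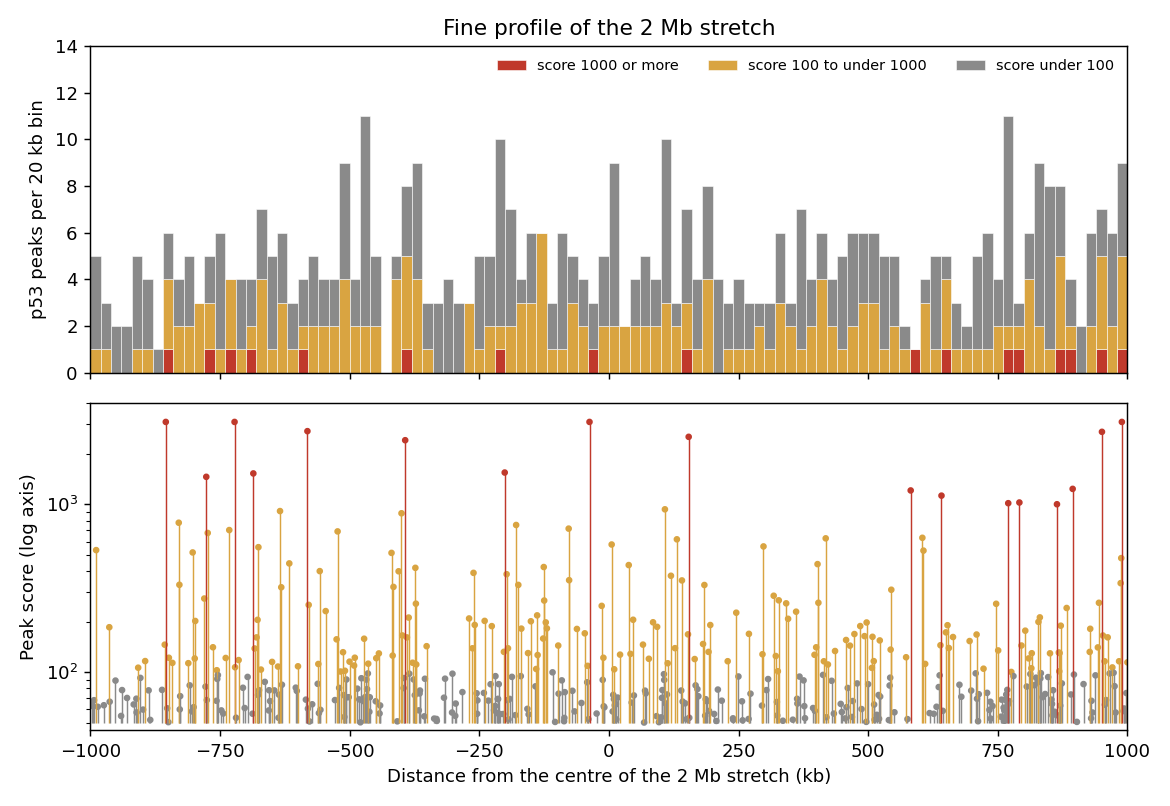
Upper panel, p53 peaks per 20 kb bin (vertical axis) by distance in kb from the centre of the 2 Mb stretch, stacked by score class; lower panel, the score of each of the 492 peaks on a log axis at the same positions. Weak peaks lay along the whole stretch, no neighbouring pair of the 17 peaks scoring 1000 or more lay within 10 kb, and a run of 98 peaks right of the centre contained none of these 17.

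The fullest 20 kb bins lay apart from one another. Among 20 kb bins, 11 peaks each lay from 79520001 to 79540000 and from 80760001 to 80780000, followed by 10 each from 79780001 to 79800000 and from 80100001 to 80120000, and 9 from 79480001 to 79500000. A count of 9 or more was reached by 9 bins, and the fifth place was given to the leftmost of those with 9. The highest score differed between these full bins. It was 158.07 in the bin at 79520001 and 131.34 in the bin at 79480001, but 1015.96 in the bin at 80760001 and 1547.39 in the bin at 79780001. A full bin was thus not always one with a strong peak.

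At 50 kb, the fullest bins held 20 peaks, from 79600001 to 79650000 and from 80950001 to 81000000. They were followed by 18 from 80850001 to 80900000 and by 17 from 80100001 to 80150000 and from 80750001 to 80800000. A further bin, at 80800001, also held 17 and was left out of the 5 because it lies farther right. At this scale full bins gathered toward the right, where 3 adjoining bins from 80750001 to 80900000 held 17, 17 and 18 peaks. The right-hand end was the fuller one, with 82 peaks in its last 5 bins and 49 in the first 5 bins of the left-hand end. The emptiest bin of 50 kb, from 80550001 to 80600000, held 4 peaks. The next lowest, from 79650001 to 79700000, held 7, all with scores under 100.

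Most of the 492 peaks were weak, as elsewhere. Each peak carries the authors' score, which for this version of the peak caller is −10 × log10 of its p-value against input, starting at 50 (p = 1e-05). The median was 87.18 (quartiles 64.5 and 144) in the 2 Mb, against 86.08 (61.6 and 154) in the flanks and 90.17 (63.1 and 194) over the remainder of the chromosome. Scores of 100 or more were reached by 202 of the 492, or 41.1%, against 43.0% of the whole list. Scores under 100 made up 58.9% of the 2 Mb (exact Clopper-Pearson 95% interval 54.5% to 63.3%), against 59.7% of the flanks (55.9% to 63.4%). The difference was -0.737 percentage points (Newcombe 95% interval -6.42 to 4.91), so a difference in the share of weak peaks was not detectable at these counts.

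Strong peaks, with scores of 1000 or more, were more frequent per Mb than in the flanks but took a smaller share of the peaks. The 2 Mb held 17 of them, or 3.46% (2.03% to 5.47%), against 41 of 687 in the flanks, or 5.97% (4.32% to 8.01%), and 5.77% of the whole list. That is 8.5 per Mb in the 2 Mb, against 4.1 per Mb in the flanks, a ratio of 2.07 (1.10 to 3.73). For peaks under 100 the same ratio was 3.54 (3.03 to 4.12), and for those from 100 to under 1000 it was 3.92 (3.22 to 4.77), so the 3 intervals overlap. The difference in strong share was -2.51 percentage points against the flanks, with an interval of -4.91 to 0.0171 that includes 0. Against the remainder of the chromosome (221 of 3499, 6.32%) it was -2.86 points (-4.41 to -0.714), an interval that does not include 0. At a threshold of 1000 the smaller share was therefore set off from the remainder of the chromosome by more than counting error, and whether it was so from the flanks depended on settings. The share in the 2 Mb was 0.579 times that of the flanks (95% interval 0.333 to 1.01). With a threshold of 2000 it was 0.399 times (0.183 to 0.868), with 3000 it was 0.294 times (0.101 to 0.859), and with the window moved 250 kb to the left it was 0.421 times (0.221 to 0.802), intervals that do not include 1. The interval included 1 with a threshold of 500 (0.708, 0.482 to 1.04) and with peaks up to 1 kb apart merged (0.774, 0.444 to 1.35). It also did so with flanks of 2 Mb (0.635, 0.314 to 1.29) and with the window moved 250 kb to the right (0.588, 0.334 to 1.03).

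**Figure D3:**
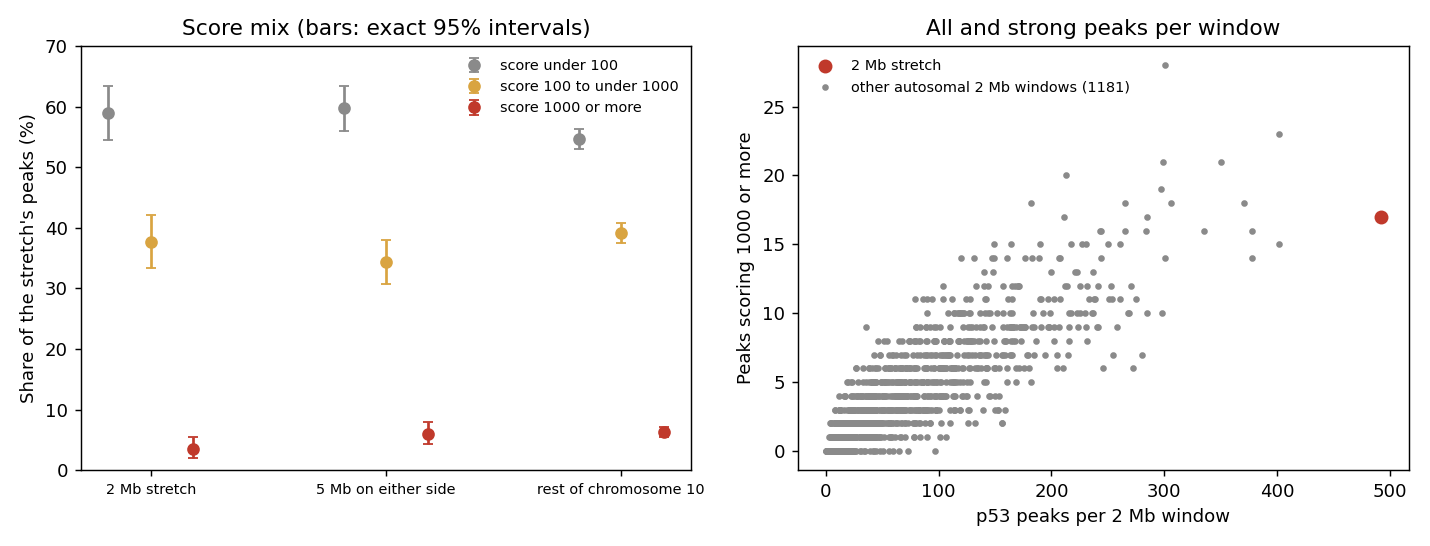
Left, share in % of the peaks of each stretch in 3 score classes, with exact 95% intervals, for the 2 Mb, its flanks and the remainder of chromosome 10; right, peaks scoring 1000 or more (vertical axis) against all peaks (horizontal axis) in 1182 autosomal 2 Mb windows, with this stretch in red. The stretch lay farthest right, with 492 peaks, but 10 windows held more than its 17 strong peaks.

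The stretch was also placed among autosomal 2 Mb windows, laid out so that it formed a whole window. Its top place in count restates how it was chosen. The 2 Mb had the highest count of 1182 windows (the next had 402 peaks and the median 56). It also had the highest count of peaks under 100 (290, the next 251), which make up most of its peaks. In strong peaks, 10 windows held more than its 17, up to 28 in the window from 31000001 to 33000000 on chromosome 2, and a further 2 held 17. Among the 79 windows with 200 or more peaks, 68 had a larger strong share and 10 a smaller one (range 2.21% to 9.39%, median 4.62%). In its share of peaks under 100, 25 of these 79 were higher and 53 lower.

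The top of the score range took a smaller share of the peaks in the 2 Mb but was not rarer per Mb. A score of exactly 3100 is shared by many peaks of the list and may be a ceiling of the file rather than a measured score, which was not tested, so peaks with it cannot be ordered among themselves or against those above it. A score of 3100 or more was reached by 4 of the 492 peaks (0.813%), against 18 of 687 in the flanks (2.62%) and 1.62% of the whole list. Per Mb that was 2 in the 2 Mb, against 1.8 in the flanks. All 4 had exactly 3100. None of the 492 lay above it, against 1 of the flank peaks and 9 over the remainder of the chromosome. Scores from 2000 to under 3100 were held by a further 4 peaks (2 per Mb), against 10 in the flanks (1 per Mb). Of 8 score bands from 50 upward, the one from 100 to under 200 had the largest surplus in share, with 121 peaks or 24.6%, against 20.2% in the flanks. This band was picked for its surplus, no interval was computed for it, and the surplus was not tested.

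The 4 peaks at 3100 lay from 79145213 to 79145942 (730 bases), from 79277791 to 79278570 (780 bases), from 79962154 to 79963165 (1012 bases) and from 80988678 to 80989880 (1203 bases). The next was a peak of 1071 bases from 79418152 to 79419222 with a score of 2731.43, followed by 1427 bases from 80950166 to 80951592 with 2706.25. A peak of 1094 bases from 80153376 to 80154469 scored 2526.48, and one of 1756 bases from 79606354 to 79608109 scored 2411.98. The ninth and the tenth, at 1547.39 and 1528.69, lay from 79798407 to 79799921 (1515 bases) and from 79313821 to 79314932 (1112 bases). After the eighth of these, the next score was 1547.39, and 9 of the 17 strong peaks scored under 2000.

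Strong peaks lay in both Mb of the stretch, and no neighbouring pair of them lay within 10 kb, which was not tested against independent scatter. The first Mb held 8 and the second 9, of which 6 lay in the last 250 kb. The distance between neighbouring strong peaks, from midpoint to midpoint, was 75272 bases at the median, and the shortest was 21487 bases. None of the 16 distances was 10 kb or less, against 5 of 24 in the left flank and 0 of 15 in the right flank. The longest stretch without a strong peak, from 80154470 to 80581576, spanned 427 kb and held 98 weaker peaks. At the left end, no strong peak lay before 79145213.

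Every strong peak had at least 1 weaker peak within 10 kb, which goes with the density that chose the stretch. Each of the 17 had 1 to 11 other peaks within 10 kb (median 5), while in the flanks 6 of 41 strong peaks had none (median 3). The nearest other peak lay 975 to 6249 bases away, midpoint to midpoint, and its score ran from 52.4 to 478.1. Weak members were set in the same density, with a median of 5 other peaks within 10 kb for those under 100 and 4 for those from 100 to under 1000, against 2 for each class in the flanks. Within the 2 Mb, 4 peaks under 100 and 3 of the middle class had no other peak within 10 kb.

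Peaks of the 2 Mb were wider than those around them. The median width was 570 bases (exact 95% interval 551 to 592), against 525 (508 to 535) in the flanks and 499 (491 to 505) over the remainder of the chromosome. The difference was 45 bases against the flanks (95% interval 23.5 to 72.8) and 71 bases against the remainder (51.1 to 94.4). A width of over 1 kb was found for 54 peaks (11%), against 44 in the flanks (6.40%). None of the 492 exceeded 4 kb. The left flank held a peak of 10580 bases, over 4 times as wide as the widest member.

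The greater width was present in each score class. For scores under 100 the median was 489.5 bases (472 to 515) in the 2 Mb, against 464 (450 to 474) in the flanks and 440 (433 to 445) over the remainder. For scores from 100 to under 1000 it was 731 bases (697 to 756), against 656 (630 to 691) and 589 (578 to 601). For strong peaks it was 1112 bases (983 to 1427, 17 peaks), against 948 (816 to 1203, 41 peaks) and 774 (745 to 808, 221 peaks). The differences from the flanks were 25.5 bases (5.34 to 54.6), 75.5 bases (26.3 to 111) and 164 bases (-122 to 506) from the weakest class to the strongest. The last of these cannot be told from 0 with 17 peaks.

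**Figure D4:**
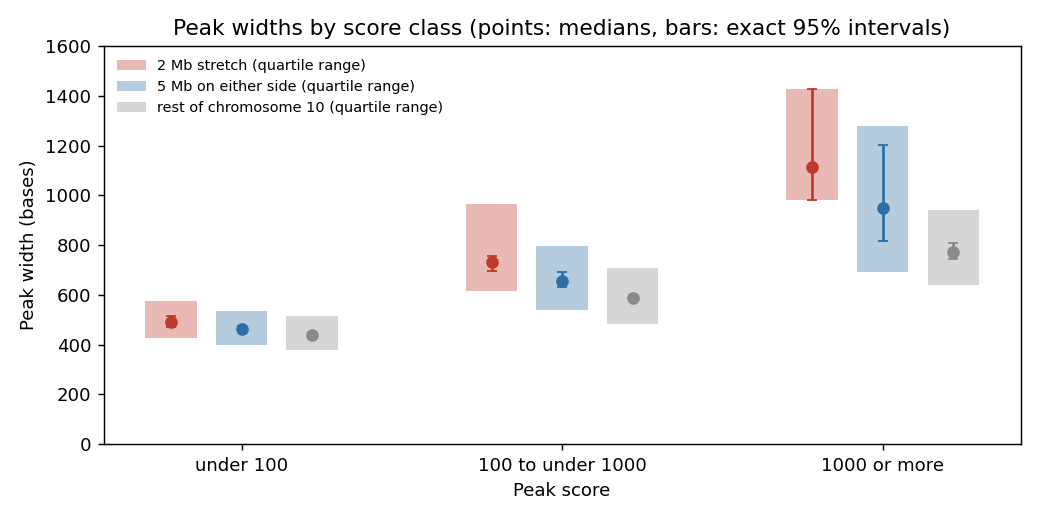
Peak width in bases (vertical axis) in 3 score classes for the 2 Mb, its flanks and the remainder of chromosome 10, with quartile ranges as boxes, medians as points and exact 95% intervals of the medians as bars. Medians fell in the same order in every class, with 1112, 948 and 774 bases at scores of 1000 or more, and the intervals of the 2 Mb and the flanks overlapped in the weakest and the strongest class but not in the middle one.

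Among the 79 windows with 200 or more peaks, none had a larger median width than the 2 Mb and 1 equalled it (range 495 to 570 bases). For the class from 100 to under 1000 its 731 bases were the largest (next 728), and for scores under 100 a single window was wider (492 bases). Width and score rose together, with a Spearman rho of 0.760 over the 492 peaks, 0.671 over the 687 flank peaks and 0.567 over the remainder, a description across peaks that share libraries and peak caller. Width, density and short gaps move together between these stretches, and their part in one another was not tested.

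The 3 widest members lay from 80640199 to 80642672 (2474 bases, score 1126.92), from 79475824 to 79477935 (2112 bases, score 689.69) and from 79382721 to 79384725 (2005 bases, score 444.54). Only the first of them was a strong peak. Together the 492 peaks covered 315868 bases, or 15.8% of the 2 Mb, against 4.13% of the flanks and 1.65% of the remainder. This was the largest covered share of the 1182 windows, the next being 12.5%.

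Gaps between neighbouring peaks were short and none was long. From the end of a peak to the start of the next, the median was 1920 bases (exact 95% interval 1633 to 2271) in the 2 Mb, against 5906 (4988 to 6736) in the flanks and 12484 (11874 to 13161) over the remainder. The longest gap was 22195 bases in the 2 Mb, against 397938 bases in the flanks. Gaps of up to 10 kb made up 91.4% of 491 (88.6% to 93.8%), against 65.5% of 685 in the flanks. Gaps of up to 1 kb made up 33.2% (29.0% to 37.6%), against 17.2% (14.5% to 20.3%). Gaps of up to 100 bases, at which 2 peaks may be pieces of 1 enriched stretch, made up 21 of the 491, against 14 of the 685.

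**Figure D5:**
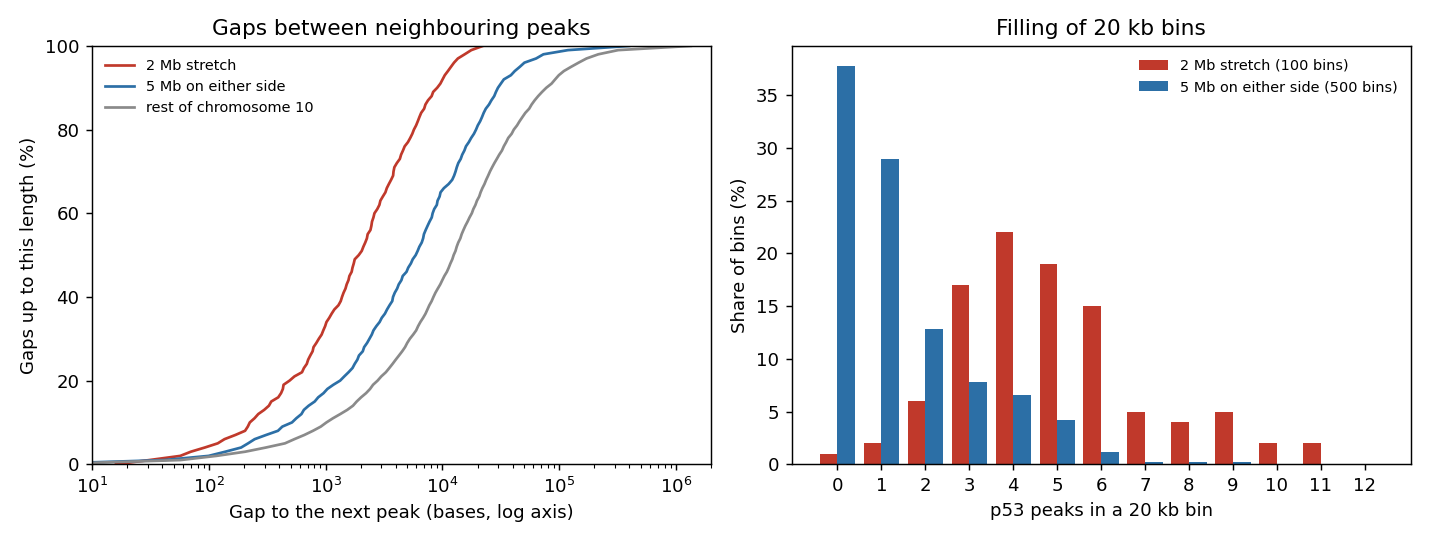
Left, cumulative share in % of gaps between neighbouring peaks by length in bases (log axis) for the 2 Mb, its flanks and the remainder of chromosome 10; right, share in % of 20 kb bins by the number of peaks they hold, for 100 bins of the 2 Mb and 500 bins of its flanks. Gaps of the 2 Mb ended at 22195 bases, and its bins centred on 3 to 6 peaks, while 37.8% of the flank bins were empty.

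The 5 longest gaps of the 2 Mb were nearly equal in length. They ran from 79115919 to 79138113 (22195 bases), from 80550913 to 80572880 (21968 bases), from 80273356 to 80295074 (21719 bases), from 80582560 to 80604156 (21597 bases) and from 79559118 to 79580471 (21354 bases). The second and the fourth of them enclosed the strong peak at 80581577 (score 1210.18) and its 2 left-hand neighbours, at 80572881 (score 122.57) and 80575561 (score 52.43), and lay mostly in the emptiest 50 kb bin. The standard deviation of the gaps was 1.17 times their mean in the 2 Mb, against 2.22 times in the flanks and 2.06 times over the remainder.

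More than 1 peak in 2 belonged to a small chain. Linked over gaps of up to 2 kb, 265 of the 492 peaks (53.9%) stood in chains of 3 or more, against 137 of 687 in the flanks (19.9%). Chains of 5 or more numbered 20 and held 119 peaks, against 6 chains with 34 peaks in the flanks. Single peaks made up 27.4%, against 56.2%. The longest chain had 10 peaks over 10949 bases from 80760967 to 80771915, with a top score of 1015.96. The next had 9 peaks from 79525752 to 79539193 and a top score of only 158.07, and the third had 8 peaks from 80004946 to 80014498 and a top score of 576.19. When peaks up to 1 kb apart were joined, the 492 became 329 regions, against 569 in the flanks, and the density ratio was 2.89 (2.52 to 3.32) in place of 3.58.

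Other dense ground lay in the last part of chromosome 11, from 115000001 to 121000000, with 1182 peaks in 6 Mb. Density was 246 per Mb in the 2 Mb, against 197 per Mb there (ratio 1.25, 1.12 to 1.39). Strong peaks did not differ in frequency per Mb beyond counting error, at 8.5 against 9 (ratio 0.944, 0.513 to 1.65). Their share was 3.46%, against 4.57%, a difference of -1.11 percentage points with an interval (-2.97 to 1.15) that includes 0. Median width differed by 18 bases (570 against 552, interval -4.47 to 43.1), which includes 0. The 20 kb counts had a variance over mean of 0.972, against 1.28, and 1% of bins were empty, against 4.67%. Variance over mean was 0.964 against 1.05 at 10 kb, and 1.07 against 1.27 at 50 kb. For peaks under 100 at 20 kb the order was the other way, at 1.21 against 1.10, but at 50 kb it was not, at 0.861 against 1.02. The longest gap was 22195 bases, against 76302 bases, and the share of peaks in chains of 3 or more was 53.9%, against 37.5%. Longest gaps, chains, empty bins and variance over mean were not adjusted for the difference between the stretches in length (2 Mb against 6 Mb) or in density. Variance over mean was 0.972 and the strong share 3.46% in the 2 Mb, against 0.864 and 3.7% in the window from 123000001 to 125000000 on chromosome 8, which held 378 peaks.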

How the data were processed

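p53 ChIP and input DNA from Nutlin-treated mouse embryonic stem cells were sequenced, with 1 library each, grouped by their titles. The authors deposited 1 peak list on mm9; the submitters' processing notes name CASAVA 1.8.2 and MACS 1.4.1. Score values are as deposited by the authors. Depth is unknown and limits weak peaks, with read totals, aligner, duplicate handling and caller settings not given in the sources used here.

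Peaks were placed by midpoint; starts are printed counted from 1. Python 3.11.15, NumPy 2.4.6, pandas 2.3.3, SciPy 1.17.1 and Matplotlib 3.10.9 were used. Counts, shares and medians have 95% intervals (exact conditional, Clopper-Pearson or Newcombe, order statistics; differences of medians combine both limits); no p-value was computed. The length of the remainder of the chromosome was that between its first and last peak. Autosomal 2 Mb windows were kept where they lay between the first and last peak. Functions were tested on simulated lists.

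Named positions were the 10 highest scores, 3 widest peaks, 5 fullest bins per size, 5 longest gaps and 3 longest chains. The stretch and these rules were chosen with earlier results of these data known. Alternatives were other score limits, bin sizes, bin starts, distances, flanks, window positions, merging at 1 kb and removal of peaks over 4 kb. The set of windows with 200 or more peaks, the runs at 25 kb and the chromosome 11 stretch were added after seeing the data.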

Additional observations from a re-analysis of the deposited data

How the results depend on the processing

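Of 53 alternatives, 25 stayed within the 95% interval of the reported value, 25 moved outside it and 3 changed side. The density ratio of 3.58 was 2.93 at scores of 200 or more, 2.07 at 1000 or more, 2.89 with peaks up to 1 kb apart merged, 4.12 with flanks of 2 Mb, 8.08 against the remainder of the chromosome and 2.72 with the window 250 kb to the left. The ratio of strong shares (0.579) stayed below 1 in all 8 alternatives, from 0.294 at scores of 3000 or more to 0.774 after merging, and its interval lay below 1 at thresholds of 2000 and 3000, against the remainder and with the window to the left. The ratio of weak shares (0.988) was 1.05 with a limit of 200, 1.01 with flanks of 2 Mb and 1.08 against the remainder. After merging it was 0.876, with an interval of 0.767 to 0.9995 that lies below 1. Merging keeps the highest score of the joined peaks, which by itself alters score shares. The ratio of weak shares thus has no settled direction. The width difference of 45 bases was 75.5 at scores of 100 to under 1000, 164 at 1000 or more and 135 after merging. The share of gaps up to 10 kb (91.4%) was 33.2% at 1 kb, 76.6% at 5 kb and 99.0% at 20 kb, by construction, 65.2% at scores of 100 or more and 87.2% after merging. Variance over mean (0.972) was 0.481 after merging, which removes near neighbours by construction. It was 1.39 and 1.29 with the window 250 kb to the left and right, which takes in sparser ground. Empty bins (1%) were 8% at 10 kb, 0 at 50 kb and with bins moved by 10 kb, 9% at scores of 100 or more, and 11% and 6% with the window to the left and right. No paired analysis was possible because ChIP and input were sequenced once each, and for the same reason no replicate could be left out. With read depth unknown, statements on weak peaks are limited.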
